A study of Homo sapiens with 15 samples.

Results

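The RNA levels of 34 genes that repair broken and crosslinked DNA were followed in H1299, an established human lung carcinoma line, in 5 media. The genes were taken from a list of recombination, Fanconi anemia, mismatch repair and checkpoint kinase genes, matched by symbol to the Ensembl genes of the count table, and the rule used no measured value, although earlier results of these data were known when the list was drawn up. All 34 of the listed symbols matched, out of 58395 genes in the table, and all 34 were among the 16889 genes that passed the filter on low counts and were tested. Cells were grown with serum, washed, and kept for 12 h in serum-free RPMI that held neither nutrient, 5 mM glucose, 4 mM glutamine, the 2 together, or both 5 mM glucose and 4 mM NH4Cl, an ammonium salt. With 3 libraries of poly(A) RNA to a medium there were 15. No medium contained serum, the cells are 1 transformed line, and the labels give no day, culture or batch for the replicates. The p-values therefore cover the spread among the libraries of a medium, and that spread may be technical.

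Homologous recombination repairs a double-strand break by copying an intact sister strand. The MRE11, RAD50 and NBN complex with RBBP8 starts to cut back the broken end, EXO1 and BLM extend the single strand, and the BRCA1, PALB2 and BRCA2 proteins prepare it for strand exchange, aided by paralogs such as RAD51C and XRCC3 and by the RAD54L and RAD54B translocases. The Fanconi pathway removes interstrand crosslinks: a core ligase with the E2 enzyme UBE2T attaches ubiquitin to the FANCD2 and FANCI clamp, and USP1 takes it off. ATM answers to double-strand breaks and acts on CHEK2, ATR answers to stalled forks and acts on CHEK1, and MSH6 takes part in finding mismatched bases. Many of these genes are transcribed most in late G1 and S phase, and the proteins act mainly in S and G2 phase. The libraries are of bulk RNA, so a change in the share of cells in a phase and a change of RNA per cell cannot be told apart.

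Library totals ran from 14914127 to 19938691 counts. Levels below are CPM, counts scaled to a common total, relative to TMM-scaled totals, as means ± SD of 3 libraries, and each log2 change is given with its standard error (SE) from the fit. A gene was called at an adjusted p under 0.05 in the quasi-likelihood test of edgeR, adjusted over all 16889 genes. The TMM factor was 0.793 in each library with neither nutrient and 1.01 to 1.09 in the other media, a point taken up where that medium is compared. KRT8, KRT18 and VIM, which this line expresses, summed to 36920 to 63947 counts per library, against 17 to 42 for 3 other epithelial genes, 3 to 20 for 4 leukocyte genes, 2 to 24 for 3 endothelial genes and 13 to 56 for 4 fibroblast genes. The fibroblast genes were highest in the medium with both nutrients, at 49 to 56 counts against at most 44 in any other library. The part of such cells in the results was not tested.

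Most of these genes rose when glutamine was given to cells that had glucose. Of 34 genes 21 were higher, 8 were lower and 5 did not pass, with a median log2 change of 0.29. Over all genes tested 34.2% were called higher and 33.7% lower, and the median change was 0.00. A call with a change of at least 1.5-fold was made for 10 higher genes and 1 lower gene, against 14.9% and 14.8% of all genes. The rises were led by FANCL at 2.45-fold, RAD54L at 2.24-fold, BRIP1 at 2.02-fold and UBE2T at 2.01-fold. The falls were led by RAD50 at 1.59-fold and USP1 at 1.30-fold, and the other 6 genes that fell changed less than that. In 29 of 34 genes the 3 libraries with both nutrients did not overlap the 3 with glucose alone, which held for 69.9% of the genes tested.

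**Figure D1:**
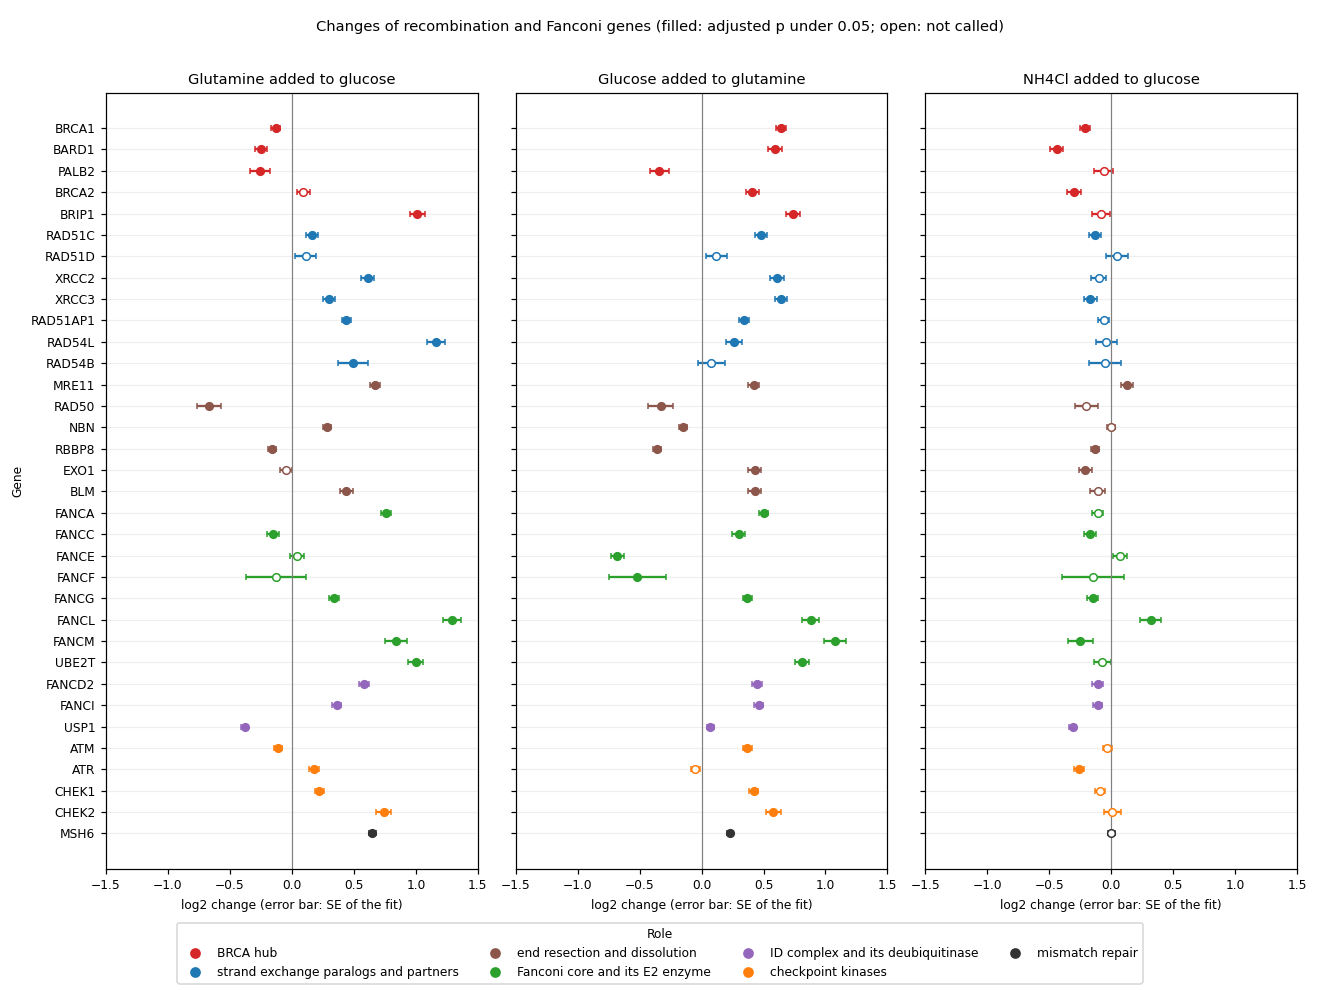
Log2 change of each of the 34 genes (rows, coloured by role) when glutamine was added to glucose (left), glucose to glutamine (middle) and NH4Cl to glucose (right), with the SE of the fit as bars; filled points are called at an adjusted p under 0.05. Points lie mostly to the right of 0 on the left (21 higher, 8 lower) and in the middle (25 higher, 6 lower), and close to 0 or to its left with NH4Cl (2 higher, 14 lower).

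To show the DNA in front of the genes that moved most, the 250 bases before the start annotated in RefSeq are given for the 3 genes with the largest rises and the 3 with the largest falls when glutamine was added to glucose. They are RefSeq promoter windows of build GRCh38.p14, 5′ to 3′ on the strand of the gene. Where a gene has several windows the one listed first is shown. Capitals mark letters that match a CCAAT box or the CHR element TTTGAA on either strand, so that ATTGG and TTCAAA are reverse matches. In GENCODE 29, on GRCh38, the genes lie with FANCL (ENSG00000115392) at chr2:58159243-58241372, RAD54L (ENSG00000085999) at chr1:46247688-46278473, BRIP1 (ENSG00000136492) at chr17:61681266-61863521, RAD50 (ENSG00000113522) at chr5:132556019-132646344, USP1 (ENSG00000162607) at chr1:62436297-62451804 and PALB2 (ENSG00000083093) at chr16:23603160-23641310. The window of RAD50 lies inside the gene as GENCODE draws it, downstream of the GENCODE start. Those of USP1 and FANCL lie partly inside the gene, running past the GENCODE start. No window holds any of the E2F words TTTCCCGC, TTTGGCGC, TTTCGCGC or TTTGCCGC.
FANCL, chr2:58241326-58241575, minus strand: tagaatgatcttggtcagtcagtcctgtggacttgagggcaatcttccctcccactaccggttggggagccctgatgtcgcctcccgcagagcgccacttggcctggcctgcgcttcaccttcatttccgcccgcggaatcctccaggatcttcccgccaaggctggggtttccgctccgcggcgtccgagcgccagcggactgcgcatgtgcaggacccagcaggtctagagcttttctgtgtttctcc
RAD54L, chr1:46247438-46247687, plus strand: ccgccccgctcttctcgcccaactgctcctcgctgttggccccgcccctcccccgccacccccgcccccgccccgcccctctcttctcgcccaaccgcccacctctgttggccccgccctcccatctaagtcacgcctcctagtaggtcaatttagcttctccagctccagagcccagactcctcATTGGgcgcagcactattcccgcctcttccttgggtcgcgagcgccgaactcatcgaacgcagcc
BRIP1, chr17:61863529-61863778, minus strand: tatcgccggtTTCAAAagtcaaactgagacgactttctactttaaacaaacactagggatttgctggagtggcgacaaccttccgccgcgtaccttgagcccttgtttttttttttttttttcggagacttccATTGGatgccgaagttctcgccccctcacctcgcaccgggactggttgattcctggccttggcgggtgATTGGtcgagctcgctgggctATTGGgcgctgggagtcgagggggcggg
RAD50, chr5:132556727-132556976, plus strand: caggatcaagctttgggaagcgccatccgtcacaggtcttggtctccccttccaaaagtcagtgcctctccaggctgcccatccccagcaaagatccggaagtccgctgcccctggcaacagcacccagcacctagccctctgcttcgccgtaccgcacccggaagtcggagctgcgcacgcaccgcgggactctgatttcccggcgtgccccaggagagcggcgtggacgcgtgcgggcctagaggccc
USP1, chr1:62436145-62436394, plus strand: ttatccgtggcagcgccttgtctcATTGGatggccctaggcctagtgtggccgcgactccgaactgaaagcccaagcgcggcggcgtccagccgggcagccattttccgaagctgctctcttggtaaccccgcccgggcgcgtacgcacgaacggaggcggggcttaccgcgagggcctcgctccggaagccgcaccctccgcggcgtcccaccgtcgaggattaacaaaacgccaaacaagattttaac
PALB2, chr16:23641311-23641560, minus strand: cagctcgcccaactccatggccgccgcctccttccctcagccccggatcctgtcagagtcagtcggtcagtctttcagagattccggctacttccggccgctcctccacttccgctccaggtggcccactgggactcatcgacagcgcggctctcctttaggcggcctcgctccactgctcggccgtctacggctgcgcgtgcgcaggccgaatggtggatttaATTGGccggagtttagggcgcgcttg

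The windows of FANCL and RAD50, the largest rise and the largest fall, are alike in holding none of the words searched. BRIP1 has 3 CCAAT words and 1 CHR word, and RAD54L, USP1 and PALB2 have 1 CCAAT word each in these bases. A second RefSeq window of RAD54L overlaps the one shown, and a second one of USP1 holds 2 CHR words and no CCAAT word. With the 50 bases after the start included, 31 of the 34 genes have at least 1 RefSeq window, and RAD54B, NBN and FANCI are named only. A CCAAT word occurred in 21 of the 45 windows of these genes (46.7%), against 34.6% of 35116 promoters of the same length and 34.5% of the 15999 of tested genes. An E2F word occurred in 6 of 45 windows (13.3%), against 3.31% of all promoters, 4.77% of those of tested genes and 45.7% of the windows of replication fork genes, and these 6 belonged to XRCC2, EXO1, FANCA, FANCC, FANCD2 and MSH6. The CHR word occurred in 11.1% of the windows, against 15.2% of all promoters, 10.5% of those of tested genes and 68.4% of those of mitosis genes. Of the 18 genes that rose and have a window, 12 hold CCAAT and 4 an E2F word, and of the 8 that fell, 4 hold CCAAT and 1 an E2F word. No match of 1 motif overlapped a match of another in these windows, and a match says only that these letters stand there.

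The BRCA group moved apart. BRIP1, a helicase that binds BRCA1, had 18.2, 19.7 and 22.5 CPM in the 3 libraries with glucose and 41.8, 39.6 and 40.2 CPM with both nutrients. The groups did not overlap, and the log2 change was 1.01 (SE 0.061, adjusted p = 1.26e-35). BARD1, the partner of BRCA1 in a ubiquitin ligase, went the other way, from 42.3, 41.4 and 45.1 CPM to 37.1, 35.8 and 35.5 CPM, and every library with both lay below every library with glucose. It fell by 0.25 on the log2 scale (SE 0.051, adjusted p = 5.12e-06). BRCA1 fell by 0.13, from 80.0 ± 3.23 to 73.0 ± 0.643 CPM. PALB2, which links BRCA1 to BRCA2, fell by 0.26, from 16.2 ± 1.44 to 13.5 ± 0.591 CPM. BRCA2, which acts on single-stranded DNA before strand exchange, did not pass, with 33.8, 35.5 and 37.9 CPM with glucose and 38.1, 37.8 and 38.1 CPM with both (log2 change 0.09, SE 0.052, adjusted p = 0.113). Across the media BRCA1 ranged from 46.8 ± 0.707 CPM with glutamine alone to 80.0 CPM with glucose alone. Under TMM each neighbouring pair of media in its order differed. The pair of both nutrients and glucose with NH4Cl was borderline, and with library totals it was not called (adjusted p = 0.0544). Nor was BRCA1 called lower with glutamine alone than with neither nutrient under that scaling. PALB2 stayed within 13.5 to 17.1 CPM, and of its neighbouring pairs only neither and both nutrients differed under TMM. With library totals PALB2 was not called lower with both than with neither.

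Of the strand exchange paralogs and their partners 6 of 7 rose with glutamine and none fell, with 34.2% and 33.7% of all genes called in those directions. RAD54L, a translocase that drives strand invasion, had 14.4, 14.5 and 11.2 CPM with glucose and 30.2, 31.1 and 28.8 CPM with both, a log2 change of 1.16 (SE 0.072, adjusted p = 1.99e-32). Every library with both lay above every library with glucose. XRCC2, of the paralog complex with RAD51C and RAD51D, rose by 0.61 to 39.9 ± 2.37 CPM. RAD54B rose by 0.49, RAD51AP1, which helps DNA strands pair, by 0.44, XRCC3 by 0.30 and RAD51C by 0.16. RAD51D did not pass, at 13.6, 12.2 and 13.6 CPM with glucose and 13.8, 13.4 and 15.3 CPM with both (log2 change 0.11, SE 0.087, adjusted p = 0.268). RAD51D also did not differ among the 4 media with a nutrient in any neighbouring pair of its order.

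Exons shared with another gene on the same strand limit RAD54B and RAD50, since no source used here tells how reads in such exons were assigned. In GENCODE 29, RAD54B shares 59.1% of its exonic bases with FSBP (0 to 11 counts) and had 86 to 159 counts, and RAD50 shares 79.7% with AC116366.3 (0 to 3 counts) and had 102 to 225 counts. Among protein-coding genes that share 50 to 75% of their exonic bases in this way 33.1% reached a mean of 1 CPM, and among those that share 75% or more 3.76%, against 62.2% of those that share none. The part of this sharing in their values was not tested. Antisense overlap is the other limit, since the kit keeps strand but the counting setting is not given. KLC1 covers 76.7% of the exonic bases of XRCC3, LRRC41 25.1% of RAD54L, ZNF276 23.6% of FANCA, VRK2 with AC007250.1 19.7% of FANCL, AC109992.1 (0 counts) 16.4% of ATR and FBXO11 16.2% of MSH6, and in every other gene antisense exons cover 11.3% or less. When glutamine was added to glucose, KLC1 fell by 0.27, ZNF276 by 0.51 and FBXO11 by 0.95 while their partners rose, LRRC41 rose by 0.24 against 1.16 for RAD54L, and VRK2 did not pass (log2 change 0.00, adjusted p = 0.965).

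Among the end resection genes MRE11 and RAD50, whose proteins sit in a single complex, moved in opposite directions. MRE11, the nuclease, had 40.0, 38.3 and 40.6 CPM with glucose and 63.1, 62.8 and 62.7 CPM with both (log2 change 0.67, SE 0.044, adjusted p = 5.27e-33). RAD50, the ATPase that tethers the ends, had 12.4, 11.5 and 13.1 CPM with glucose and 7.95, 7.81 and 7.47 CPM with both, and fell by 0.67 (SE 0.097, adjusted p = 2.56e-10). In both genes the groups did not overlap. NBN, the third subunit, rose by 0.28, from 90.5 ± 1.23 to 110 ± 3.83 CPM. BLM, the helicase that dissolves joined molecules, rose by 0.44, and RBBP8, which switches on the nuclease, fell by 0.16. EXO1, a nuclease for long resection, did not pass, at 39.6, 38.0 and 41.9 CPM with glucose and 38.3, 40.1 and 37.1 CPM with both (log2 change -0.05, SE 0.050, adjusted p = 0.372), and the libraries were interleaved.

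Within the Fanconi core 5 of 8 genes rose and FANCC fell, with 34.2% and 33.7% of all genes called in those directions. FANCA, a core subunit, had 46.4, 46.2 and 48.6 CPM with glucose and 80.4, 76.6 and 82.3 CPM with both (log2 change 0.76, SE 0.040, adjusted p = 1.03e-43). FANCL, the ubiquitin ligase of the core, had 11.6, 11.4 and 10.2 CPM with glucose and 26.1, 27.8 and 27.7 CPM with both, and UBE2T, its E2 enzyme, had 18.5 to 21.0 CPM and 40.9, 40.2 and 38.3 CPM. FANCL rose by 1.29 (SE 0.075) and UBE2T by 1.00 (SE 0.060) on the log2 scale, and in neither gene did the groups overlap. FANCM, the translocase that brings the core to DNA, rose by 0.84 to 17.6 ± 0.283 CPM, its highest level in any medium, with 8.26 to 10.8 CPM in the other 4. FANCG rose by 0.34. FANCC fell by 0.15, from 41.0 to 44.3 CPM in the libraries with glucose to 39.2, 37.2 and 38.2 CPM (adjusted p = 0.00413), with no overlap, and the call was lost without glucose replicate 1 (adjusted p = 0.0555). FANCE, which binds FANCD2, did not pass, at 27.5, 27.6 and 28.1 CPM with glucose and 28.7, 28.1 and 28.7 CPM with both (adjusted p = 0.552). FANCF, an adaptor of the core, did not pass either (log2 change -0.13, SE 0.24, adjusted p = 0.643). At 8 to 41 counts per library it was the lowest of the 34 genes, so a change of the size seen for FANCG was not detectable at this depth.

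**Figure D2:**
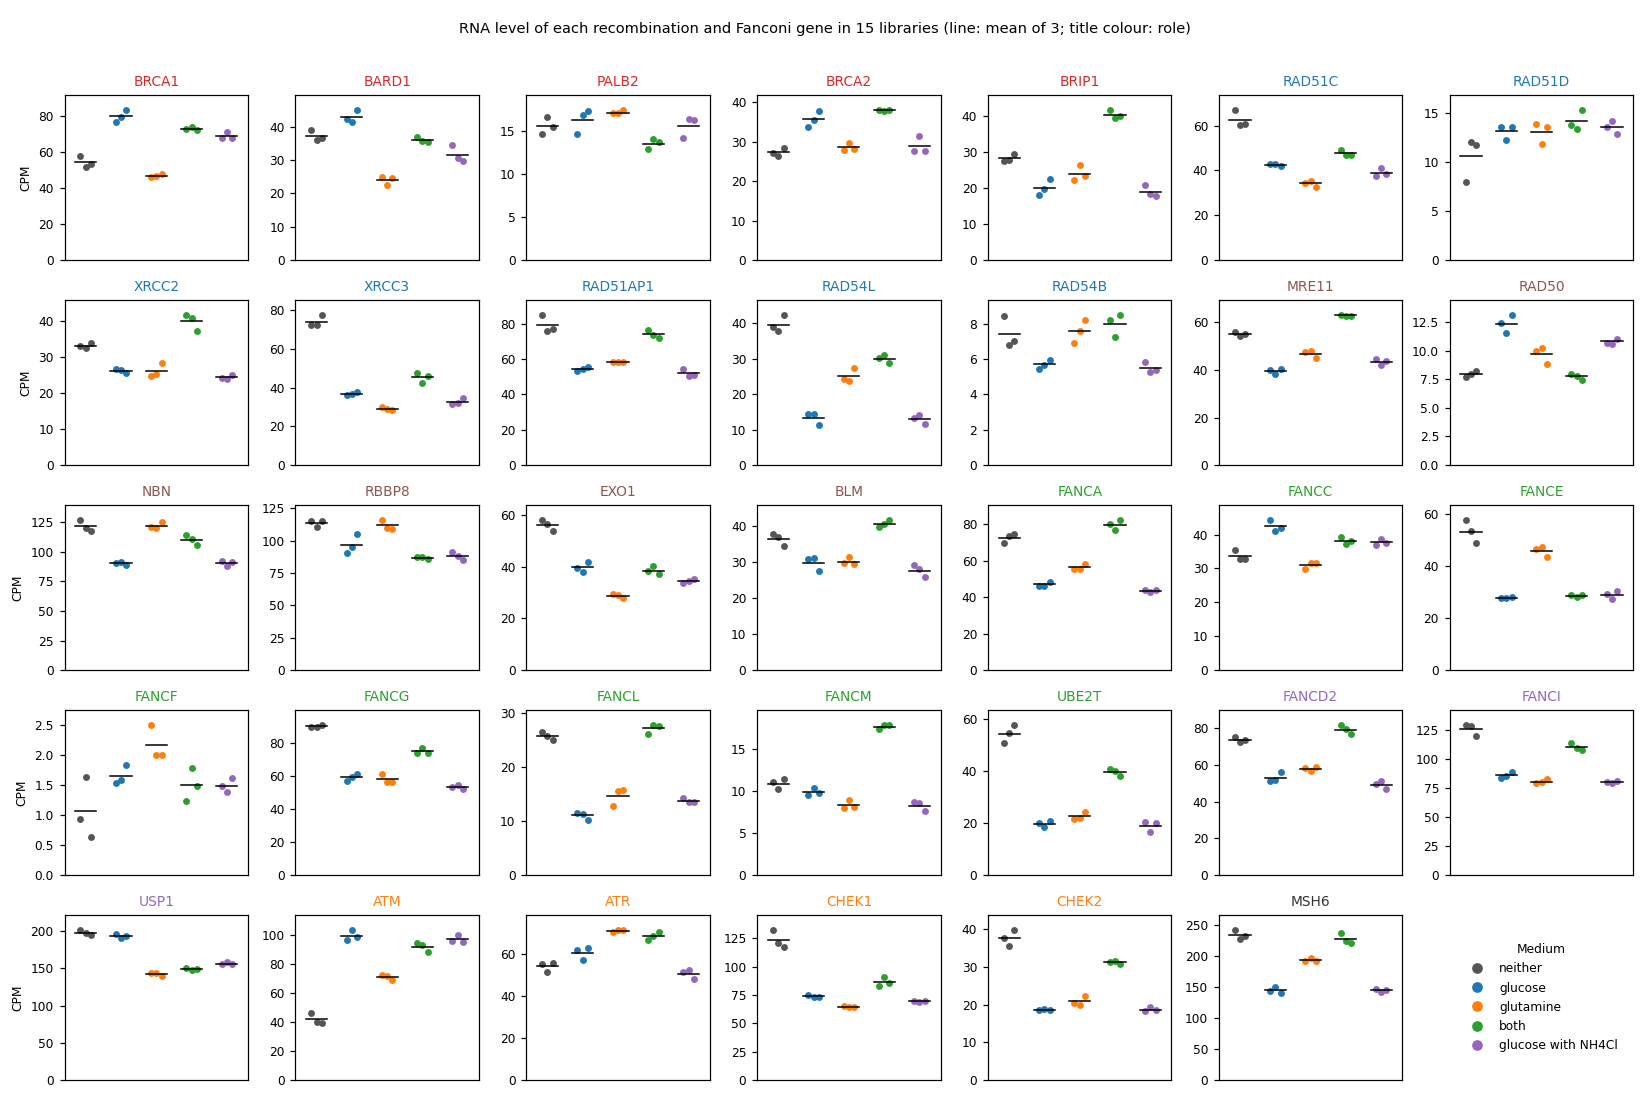
Level of each gene in CPM (vertical axes, from 0) in the 15 libraries, grouped by medium and coloured as in the key; the black line is the mean of 3 libraries, and the colour of a gene's name marks its role. On this TMM scale RAD54L, FANCL, UBE2T and CHEK2 are high with neither nutrient and with both, and low with glucose alone or with NH4Cl, while ATM is lowest with neither. With glutamine alone RAD54L stands at 25.1, FANCL at 14.7, UBE2T at 22.7 and CHEK2 at 20.9 CPM, each below its level with both. With library totals RAD54L, FANCL and CHEK2 are highest with both.

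Of the clamp and its deubiquitinase, FANCD2 and FANCI rose and USP1 fell. FANCD2 had 51.2, 51.7 and 56.2 CPM with glucose and 81.5, 79.6 and 76.4 CPM with both (log2 change 0.58, SE 0.039, adjusted p = 1.13e-31), and FANCI rose by 0.36 to 110 ± 3.00 CPM. USP1, which removes the ubiquitin that UBE2T attaches, had 196, 191 and 193 CPM with glucose and 150, 147 and 149 CPM with both, and fell by 0.38 (SE 0.028, adjusted p = 1.34e-28). The ratio of UBE2T to USP1 counts, which needs no scaling between libraries, was 0.102, 0.0965 and 0.109 with glucose and 0.272, 0.274 and 0.257 with both. WDR48, the cofactor of USP1, fell too, by 0.44 (SE 0.037, adjusted p = 4.01e-24).

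Of the checkpoint kinases 3 of 4 rose and ATM fell, against 34.2% and 33.7% of all genes. CHEK2 had 18.5, 18.8 and 18.6 CPM with glucose and 31.3, 31.5 and 30.7 CPM with both (log2 change 0.74, SE 0.062, adjusted p = 8.23e-24). ATM, the kinase upstream of CHEK2, had 96.3, 103 and 98.3 CPM and 93.9, 92.8 and 88.1 CPM, and fell by 0.11 (SE 0.033, adjusted p = 0.00155). The effector thus rose 1.67-fold while its activator fell 1.08-fold. ATR and CHEK1 rose by 0.18 and 0.22. MSH6 had 144, 150 and 141 CPM with glucose and 237, 225 and 221 CPM with both, a log2 change of 0.65 (SE 0.028, adjusted p = 2.04e-55).

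When glucose was given to cells that had glutamine, 25 of the 34 genes rose and 6 fell, with a median log2 change of 0.41. Over all genes 32.6% were higher and 33.0% lower, with a median of -0.01. This comparison shares the 3 libraries with both nutrients with the one above. FANCM rose most, by 1.08 (SE 0.089), from 7.94, 8.89 and 8.04 CPM to 17.3, 17.8 and 17.8 CPM. FANCL followed at 0.88, UBE2T at 0.81 and BRIP1 at 0.74. BRCA1 rose by 0.64 and BARD1 by 0.59, while both fell with glutamine added to glucose. EXO1, which did not pass with glutamine, rose by 0.43 (SE 0.053, adjusted p = 4.82e-13), from 29.3, 28.9 and 27.7 CPM. RAD54L rose by 0.26 with glucose against 1.16 with glutamine. FANCE fell most, by 0.68 (SE 0.052, adjusted p = 6.21e-27), from 46.3, 47.4 and 43.4 CPM to 28.7, 28.1 and 28.7 CPM, and the other genes that fell were FANCF, RBBP8, PALB2, RAD50 and NBN. The call of FANCF was lost without glutamine replicate 1, both replicate 1 or both replicate 3 (adjusted p = 0.156, 0.159 and 0.0746), and those of FANCF and NBN with library totals (adjusted p = 0.096 and 0.142). ATR, RAD51D and RAD54B did not pass.

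NH4Cl added to glucose changed fewer of the genes, and mostly lowered them. This comparison shares its 3 libraries with glucose alone with that of glutamine added to glucose. Of 34 genes 2 were higher, 14 lower and 18 did not pass, against 12.7% and 16.9% of all genes, and the median log2 change was -0.11 (all genes -0.01). None of them changed 1.5-fold, which 1.17% of all genes did upward and 0.900% downward. FANCL was the larger of the 2 rises, at 14.3, 13.5 and 13.6 CPM against 11.6, 11.4 and 10.2 CPM with glucose (log2 change 0.32, SE 0.086, adjusted p = 0.00177), and MRE11 was the other, at 0.13 (SE 0.048, adjusted p = 0.0273). Without glucose replicate 2, or NH4Cl replicate 1 or 3, the call of MRE11 was lost (adjusted p = 0.138, 0.106 and 0.0715) and FANCL alone was higher. BARD1 fell most, by 0.44 (SE 0.053, adjusted p = 6.13e-13), to 34.6, 30.6 and 29.8 CPM. USP1 fell by 0.31, BRCA2 by 0.30, ATR by 0.26, FANCM by 0.25, and BRCA1 and EXO1 by 0.21 each. The call of FANCM was lost when any of the glucose libraries, or NH4Cl replicate 2 or 3, was left out (adjusted p = 0.063 to 0.216). RAD54L, BRIP1, UBE2T, CHEK2 and MSH6, among the strongest rises with glutamine, did not pass here, with log2 changes of -0.04, -0.08, -0.07, 0.01 and 0.00. The count of 14 lower genes was 6 without the low-count filter (3.89% of all genes). It was 11 with library totals and 11 to 12 when 1 of the compared libraries was left out, for which shares of all genes were not counted. RAD51C, FANCD2, FANCI, RBBP8 and FANCC also lost their calls in some of the fits without 1 library.

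Set directly against each other, the medium with glucose and NH4Cl was below the medium with both nutrients in 25 of 34 genes and above it in 4, against 33.4% and 31.2% of all genes, with a median log2 difference of -0.45. In 10 genes the difference was at least 1.5-fold, all lower with NH4Cl (12.5% of all genes were so lower and 12.0% higher). RAD54L was lower by a log2 difference of -1.2 (SE 0.073), at 13.4, 14.0 and 11.6 CPM against 30.2, 31.1 and 28.8 CPM. BRIP1 and FANCM were at -1.09 each, UBE2T at -1.07 and FANCL at -0.98. PALB2, RAD50, USP1 and ATM were higher with NH4Cl, by 0.20, 0.47, 0.07 and 0.08, and RAD50 alone was called higher when NH4Cl replicate 2 was left out. PALB2 also lost its call without both replicate 1 or NH4Cl replicate 3 (adjusted p = 0.101 and 0.0935), USP1 without both replicate 2 (adjusted p = 0.0803) and ATM without both replicate 3 (adjusted p = 0.275). Without the low-count filter 2 were higher (10.7% of all genes).

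Against the medium with neither nutrient the direction of many genes depends on the scaling. With TMM the median log2 change of all genes was 0.0497 with glucose, 0.0243 with glutamine and 0.0474 with both, and with library totals alone it was 0.486, 0.368 and 0.49. With glucose alone 9 genes were higher and 22 lower with TMM (39.9% and 37.9% of all genes), and 14 higher and 13 lower with library totals (60.1% and 20.9%). With glutamine alone the counts were 5 and 23 (37.0% and 35.8% of all genes), and 15 and 13 with library totals (56.4% and 19.6%). With both they were 13 and 15 (37.0% and 35.3%), and 25 and 4 with library totals (64.3% and 14.2%). With glucose and NH4Cl they were 5 and 26 (39.6% and 37.9%), and 13 and 15 with library totals (60.8% and 19.7%).

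Some calls were made under both scalings. With glucose alone 13 genes were lower under both (20.9% of all genes), among them RAD54L, UBE2T, FANCL, CHEK2, XRCC3, FANCE, CHEK1 and MSH6, and 9 were higher (39.9%), namely BRCA1, BARD1, BRCA2, RAD51D, RAD50, FANCC, FANCF, ATM and ATR. Of these RAD51D lost its call without neither replicate 1 (adjusted p = 0.217), and FANCF without neither replicate 1 or 3 or glucose replicate 3 (adjusted p = 0.127, 0.253 and 0.104). On the TMM scale RAD54L had 38.8, 37.8 and 42.3 CPM with neither nutrient, and its mean of 39.6 CPM was 3.05-fold the lowest mean, 13.0 CPM with glucose and NH4Cl. UBE2T had 50.9, 54.5 and 57.7 CPM with neither, against 19.0 to 39.8 CPM in the means of the other media. ATM did the reverse, with 45.8, 40.1 and 39.6 CPM with neither and 99.1 ± 3.22 CPM with glucose (log2 change 1.24, SE 0.041, adjusted p = 3.28e-70), and no library with neither reached any library with a nutrient. With glutamine alone 13 were lower under both scalings (19.6% of all genes), and RAD51D, RAD50, FANCF, ATM and ATR were higher (37.0%). When neither replicate 1 was left out, RAD51D (adjusted p = 0.255) and RAD50 (adjusted p = 0.052) lost their calls and 3 genes were higher, and RAD50 also lost it without glutamine replicate 2 (adjusted p = 0.0685). That library had 7.98 CPM of RAD51D against 12.0 and 11.7 in the others of its medium. With both nutrients XRCC3, EXO1, FANCE and CHEK1 were lower under both scalings (14.2% of all genes), and 13 were higher (37.0%), with ATM at 1.12 and FANCM at 0.70.

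Ratios of partner genes within a library do not use the scaling. The pairs were chosen after the values were seen, and 3 libraries against 3 cannot go below p = 0.1 in an exact two-sided permutation test, so they are given as values. CHEK2 to ATM stood at 0.821, 0.887 and 1.00 with neither nutrient, 0.192, 0.183 and 0.189 with glucose, 0.285, 0.281 and 0.321 with glutamine, 0.334, 0.339 and 0.349 with both and 0.193, 0.194 and 0.195 with glucose and NH4Cl. The medium with neither stood apart from all others. CHEK1 to ATR was 2.28 ± 0.164 with neither, 0.909 ± 0.0102 with glutamine alone and 1.22 to 1.37 in the means of the 3 media with glucose. UBE2T to USP1 was 0.276 ± 0.0222 with neither and 0.268 ± 0.00891 with both, and these overlapped, while glutamine alone stood at 0.160 ± 0.0115 and the media with glucose but no glutamine at 0.103 and 0.121. BRCA1 to BARD1 was 1.43 to 1.48 in the libraries with neither and 1.82 or more in every other library. MRE11 to NBN was highest with both, at 0.556, 0.568 and 0.591, and at most 0.479 elsewhere. FANCD2 to FANCI was 0.719 ± 0.0135 with glutamine and 0.718 ± 0.00959 with both, and 0.586 to 0.617 in the means of the media without glutamine.

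**Figure D3:**
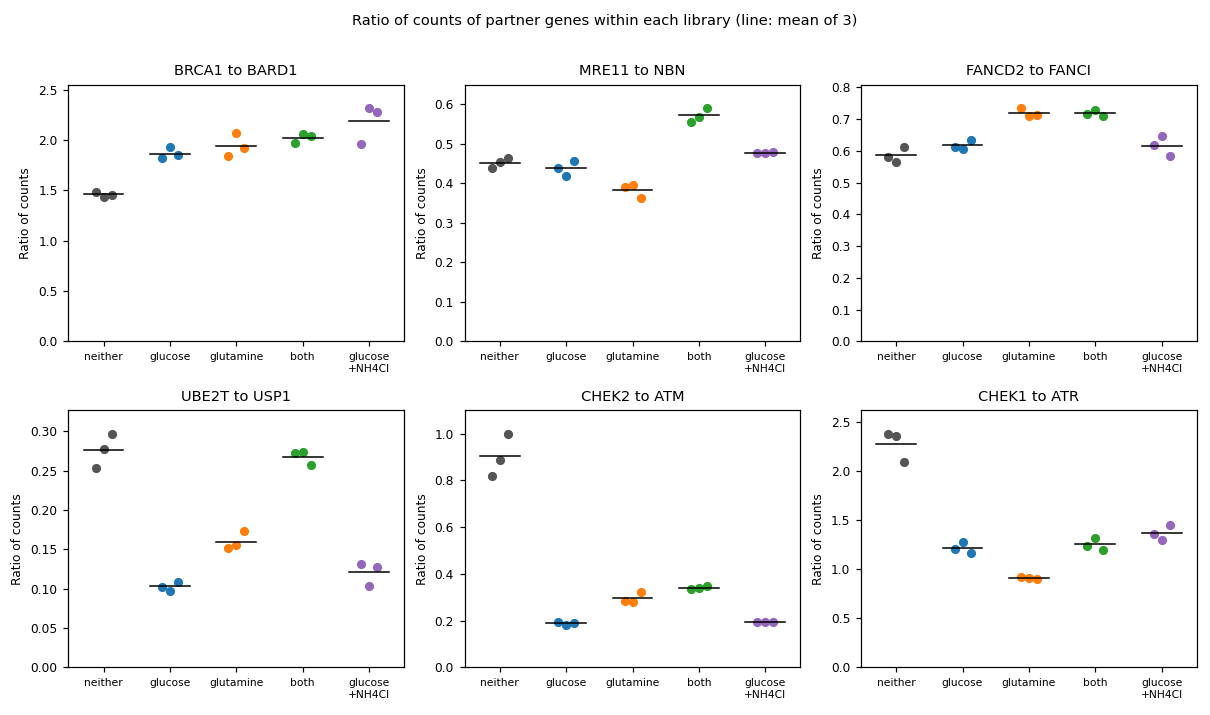
Ratio of raw counts of 6 pairs of partner genes within each library (vertical axes, from 0), by medium; points are libraries and lines the mean of 3. CHEK2 to ATM is 0.904 with neither nutrient and 0.188 with glucose, and the libraries with neither and with both overlap for UBE2T to USP1.

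Glutamine changed many of these genes in one direction with glucose and in the other without it. The interaction of glucose and glutamine, the change with glutamine in the presence of glucose less that in its absence, was positive for 24 genes and negative for 6, with a median of 0.89, against 36.8% and 38.0% of all genes and a median of -0.03. UBE2T rose by 1.00 with glucose and fell by 1.26 without, FANCL rose by 1.29 and fell by 0.81, and RAD54L rose by 1.16 and fell by 0.66. ATM and RAD50 did the opposite, falling by 0.11 and 0.67 with glucose and rising by 0.75 and 0.29 without. In 20 genes both changes were called in opposite directions and the interaction was called, 18 of them higher with glucose and lower without (18.5% of all genes) and 2 the reverse (17.8%). All 20 interactions were called in the same direction with library totals alone, but with that scaling 8 of the 18 falls without glucose were no longer called as falls, those of BRIP1, XRCC2, MRE11, BLM, FANCA, FANCM, FANCD2 and MSH6. Opposite calls under both scalings numbered 10 in the first direction (11.8% of all genes) and 2 in the second (17.7%). Negative interactions numbered 11 with library totals alone (50.3% of all genes). BRCA1, BRCA2, RAD51D and FANCC had no called interaction, with values of 0.09, 0.03, -0.21 and -0.03. The 2 changes share no library, and over the 34 genes their correlation was -0.43 (Pearson and Spearman), against -0.31 and -0.33 over all 16889 genes. Genes are not independent replicates, and no test was made of it.

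**Figure D4:**
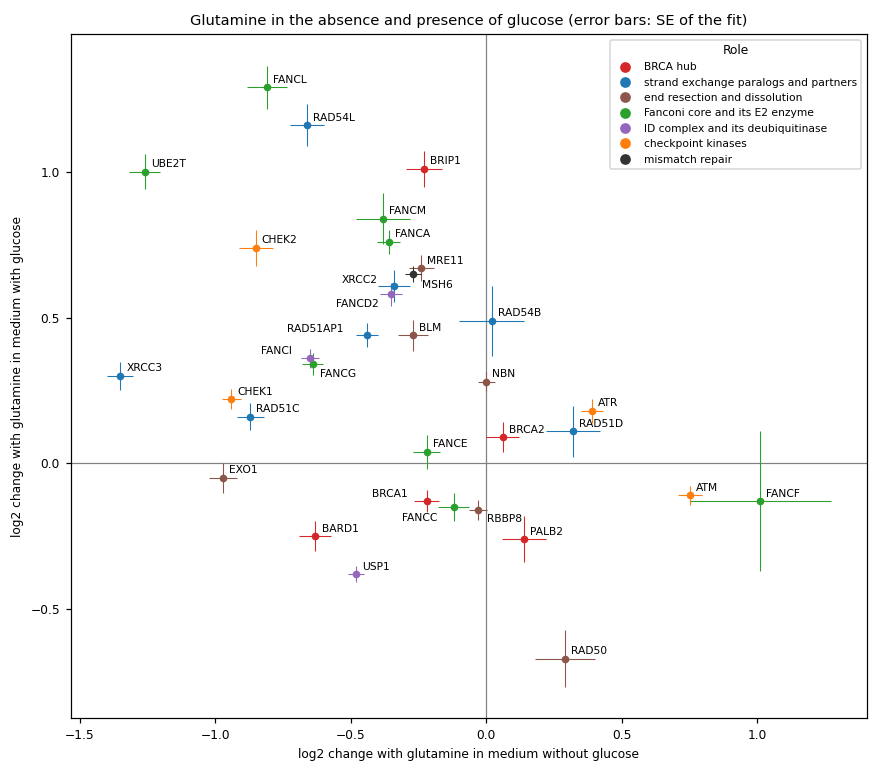
Log2 change with glutamine in medium without glucose (horizontal) against that in medium with glucose (vertical) for the 34 genes, coloured by role, with the SE of the fit as bars, under TMM scaling. Most points lie in the upper left: 18 genes were called to fall without glucose and to rise with it (10 also with library totals), while ATM and RAD50 lie at the lower right.

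The nutrients given singly left different profiles. With glutamine alone against glucose alone 15 genes were higher and 13 lower, against 33.5% and 33.0% of all genes, and the median was 0.05. With library totals 11 were higher and 14 lower. Leaving out 1 library gave 12 to 15 higher and 11 to 13 lower. For these settings the shares of all genes were not counted. BRCA1 and BARD1 were lower with glutamine, by log2 differences of -0.77 (SE 0.040) and -0.83 (SE 0.055), at 46.2, 46.8 and 47.6 CPM against 76.9, 79.7 and 83.4 CPM for BRCA1. ATM and EXO1 were lower too, at -0.48 each, and USP1 and FANCC at -0.45 each. RAD54L was higher by 0.90 (SE 0.074), FANCE by 0.72, NBN by 0.43 and MSH6 by 0.42. LRRC41, which overlaps RAD54L on the other strand, was higher by 0.78 (adjusted p = 1.11e-40). FBXO11, which overlaps MSH6, was lower by 0.44. The part of antisense reads in these changes was not tested. XRCC2 had the same mean, 26.1 CPM, in both.

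Many of the changes were small, and a test against a change of 1.2-fold in place of 0 left fewer of them. The lower genes were then 2 with glutamine added to glucose (21.3% of all genes) and 2 with glucose added to glutamine (18.8%). With NH4Cl added to glucose 0 were higher and 1 lower (1.35% and 1.28%), and with NH4Cl in place of glutamine 1 was higher (18.0%). Against neither nutrient 5 were higher with glucose (32.6%), 3 with glutamine (28.4%) and 3 with glucose and NH4Cl (31.7%), while with both 7 were higher and 9 lower (27.5% and 24.5%). Glutamine against glucose alone gave 5 higher and 7 lower (19.6% and 20.0%), and 3 interactions were negative (32.5%).

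In the order of the 5 media under TMM the highest mean fell in the medium with neither nutrient for 14 genes, with both for 11, with glucose for 5, with glutamine for 4 and with glucose and NH4Cl for 0. With library totals alone neither was highest for 4 genes (XRCC3, EXO1, UBE2T and CHEK1), both for 19, glucose for 7 and glutamine for 4. Under TMM the lowest mean fell with glucose and NH4Cl for 14. Among the 4 media with a nutrient, the medium with both was highest for 21 under TMM and for 22 with library totals. These are ranks of means, and the share of all genes highest in each medium was not counted. For BRCA2, RAD51D and RAD54B the medium with both did not differ under TMM from the next of these media (adjusted p = 0.113, 0.541 and 0.546). Under TMM neighbours in the order differed in every pair for BRCA1, RAD51C, XRCC3, MRE11 and FANCD2, but some of these calls were borderline or depended on the scaling. With library totals BRCA1 was not called between both nutrients and glucose with NH4Cl (adjusted p = 0.0544). Nor were RAD51C and FANCD2 between glucose with and without NH4Cl (adjusted p = 0.0571 and 0.0704). These calls, that of MRE11 for NH4Cl added to glucose and that of FANCD2 between both and neither were also lost in some fits without 1 library. Pairs with the neither medium depended on the scaling. With library totals RAD51C was not called lower with both than with neither. BRCA1, MRE11 and FANCD2 were then not called lower with glutamine alone than with neither. The media with glucose alone and with glucose and NH4Cl were neighbours that did not differ for RAD54L, UBE2T, FANCA, CHEK2, MSH6 and ATM, among others. Per kilobase of exon in the medium with both, USP1 was highest at 34.9 ± 0.379 CPM per kb, followed by RAD51AP1 at 28.9 and UBE2T at 24.1, and FANCF was lowest at 0.511, next to RAD50 at 0.793. BRCA1 stood at 7.95 and BRCA2 at 3.10 CPM per kb on that scale. RAD50 shares 79.7% of its exonic bases with AC116366.3 on the same strand, and the part of this in its value was not tested.

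Genes of the set with more exonic bases had higher log2 changes against the medium with neither nutrient. The rank correlation of the log2 change with exonic length over the 34 genes was 0.59 for both nutrients, 0.51 for glucose and 0.47 for glutamine, against 0.28, 0.29 and 0.24 over 13199 protein-coding genes. It was -0.16 for glutamine added to glucose (all -0.11). With the span of the gene in place of exonic length the rank correlations against neither were lower, at 0.48, 0.38 and 0.40 (all 0.16, 0.17 and 0.09). The Pearson correlations with log span over the 34 genes were 0.36, 0.25 and 0.15. These are descriptions over genes that share the same libraries. Of the genes that start within 1000 bases on the other strand, 14 protein-coding ones lie beside 13 of the 34, and 9 of them were tested. When glutamine was added to glucose, 3 of the 9 pairs were called in one direction and 1 in opposite directions. Of all single genes 34.2% were called higher and 33.7% lower, and the share over other pairs of genes was not counted. FANCM and FKBP3 rose together, by 0.84 and 0.60, while PALB2 fell by 0.26 and DCTN5 rose by 0.32. Pseudogenes that bear a member's name held at most 8 counts, apart from CHEK2P2 at 14 to 43, against 297 to 576 for CHEK2.

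Other genes of repair moved both ways, as those described here did. Of all genes tested 34.2% were called higher and 33.7% lower with glutamine added to glucose, for comparison with the counts that follow. When glutamine was added to glucose, 18 of 41 tested other recombination and Fanconi genes rose and 15 fell (median 0.13), led by CENPX, the histone-fold partner of FANCM, at 1.45, and TONSL at 1.22, with UIMC1, which brings BRCA1 to ubiquitin chains, at -0.70. Of other checkpoint genes 11 of 17 rose and 5 fell (median 0.42), led by CLSPN, the adaptor through which ATR reaches CHEK1, at 1.2. Of end joining genes 5 of 9 rose and 3 fell (median 0.09), and of other mismatch repair genes 1 of 5 rose and 2 fell (median -0.07). Replication fork genes rose in 33 of 34 (median 0.88), with MCM4 at 1.88, and mitosis genes rose in 7 of 22 and fell in 12 (median -0.06). Of the E2F and MuvB regulators 10 of 22 rose and 7 fell (median -0.01), with TFDP1 at 1.18 and the repressor E2F7 at -1.25. With NH4Cl the mitosis genes fell in 22 of 22 (median -0.40), the fork genes rose in 6 and fell in 5 of 34 (median 0.01), and the repair genes described here lay between, with a median of -0.11. In that comparison 12.7% of all genes were called higher and 16.9% lower. Against neither nutrient all 34 fork genes were lower with glucose (median -1.35) and with glutamine (median -0.98), where the repair genes had medians of -0.45 and -0.31, all under TMM. The shares of all genes called lower were 37.9% and 35.8% under TMM, and 20.9% and 19.6% with library totals. With library totals 32 and 31 fork genes were lower (medians -0.91 and -0.63), and the medians of the repair genes were -0.02 and 0.04. The lists are given by their counts and medians, and no test of a difference between lists was made.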

How the data were processed

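RNA from H1299 cells in 5 media, 3 libraries each, was measured by poly(A) sequencing with a stranded kit, per the labels' protocols. The deposited values are raw counts per Ensembl gene. The submitters' processing notes name Subread 1.5.1 with featureCounts, HISAT2 2.1.0 and the build GRCh38.p12. No source used here states their roles, the strand setting or how ambiguous reads were counted. Libraries were grouped by their titles. Totals of 14914127 to 19938691 counts put a floor of 3 counts at 0.15 to 0.201 CPM, which covers counting error only. The 15 pairs of libraries of 1 medium had a chi-square per degree of freedom of 1.219 to 2.358 over genes with at least 10 counts in the pair, and 0 pairs were identical.

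After TMM scaling, a single robust fit in edgeR 4.0.16 (R 4.3.3) gave two-sided quasi-likelihood F tests. It was a fit of 15 libraries with 10 residual degrees of freedom. The filterByExpr filter kept 16889 genes, and p-values were adjusted by Benjamini-Hochberg over all of them. Names, positions and exons came from GENCODE 29, which holds 58275 of 58395 gene IDs, and promoter windows from RefSeq.

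All 34 genes could be named. Values of every library are given, by role, for the gene with the smallest p in each direction when glutamine was added to glucose and for those that did not pass, and for some others after their values were seen. Genes of other lists were the 2 with the smallest p in each direction, of which some are printed. Members and lists were chosen with earlier results of these data known. Some genes of the other lists are not reported here. Alternatives were DESeq2 1.42.0 (size factors, and a Wald test with a local dispersion fit), library totals, other filters, the compared media alone, a replicate term, a test against a 1.2-fold change and leaving out each library. The fit was checked on simulated counts for glutamine added to glucose with 16440 genes. It called 17 of the 50 genes set to change 1.2-fold. For 1.5-fold that number was 38 of 50, for 2-fold it was 44, and for 4-fold 50. Of 16240 unchanged genes it called 13. Only the genes set to change differed, in the medium with both nutrients, and all other means were equal across the media. In the data 34.2% of genes were called higher and 33.7% lower in this comparison, so these rates need not hold there.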

Additional observations from a re-analysis of the deposited data

Results flagged for a closer look

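For 20 of the 34 genes the change with glutamine was called in opposite directions in the presence and the absence of glucose, and the interaction was called by edgeR. Of these 18 rose with glucose and fell without it (18.5% of all genes) and 2 did the reverse (17.8%). These calls are under TMM. With library totals alone BRIP1, XRCC2, MRE11, BLM, FANCA, FANCM, FANCD2 and MSH6 were not called lower without glucose, which leaves 10 (11.8% of all genes) and 2 (17.7%) under both scalings. The interactions of the 18, as log2 differences of the 2 changes, were 2.26 for UBE2T, 2.1 for FANCL, 1.82 for RAD54L, 1.65 for XRCC3, 1.59 for CHEK2, 1.24 for BRIP1, 1.23 for FANCM, 1.16 for CHEK1 and 1.13 for FANCA. The other 9 positive values were 1.04 for RAD51C, 1.01 for FANCI, 0.98 for FANCG, 0.95 for XRCC2, 0.93 for FANCD2, 0.92 for MSH6, 0.90 for MRE11, 0.88 for RAD51AP1 and 0.72 for BLM. RAD50 at -0.96 and ATM at -0.87 rose without glucose and fell with it. XRCC3 fell by 1.35 without glucose, more than any other of these genes, and rose by 0.30 with it, and KLC1, which overlaps it on the other strand, had an interaction of -0.74.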

How the results depend on the processing

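The counts of called genes kept within 1.5 times of their value with DESeq2 size factors, the DESeq2 Wald test, at least 1 CPM in 3 libraries and the compared media alone. With library totals alone 14 genes were higher and 13 lower with glucose against neither, 15 and 13 with glutamine, 25 and 4 with both, 13 and 15 with glucose and NH4Cl, and 11 interactions were negative. With that scaling the change with glutamine alone turned, among others, from a fall to a rise of 0.12 in BRIP1, 0.11 in MRE11, 0.07 in BLM and 0.07 in MSH6. FANCE, which fell by 0.22 with glutamine alone under TMM, then had its highest mean of the 5 media with glutamine. Opposite changes with glutamine, higher with glucose and lower without, were called in 10 of the 18 genes under both scalings. Without the low-count filter 6 genes were lower with NH4Cl added to glucose and 2 were higher with NH4Cl in place of glutamine. Against a 1.2-fold change 2 genes were lower with glutamine added to glucose and 2 with glucose added to glutamine. With NH4Cl added to glucose 0 were then higher and 1 lower, and in place of glutamine 1 was higher. In that test 5 were higher with glucose against neither, 3 with glutamine, 7 higher and 9 lower with both, and 3 higher with glucose and NH4Cl. Glutamine against glucose alone gave 5 and 7, and 3 interactions were negative. The cause of these shifts was not tested.

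Leaving out 1 library gave 1 to 2 higher genes with NH4Cl added to glucose, 1 to 4 higher with NH4Cl in place of glutamine and 3 to 5 higher with glutamine against neither, and all other counts stayed within 1.5 times. Equal replicate numbers did not pair the libraries: residual correlations had a median of -0.00094 over 30 pairs with equal numbers and 0.0051 over 60 with different ones, and 4 of 15 libraries were closest to their own number. A replicate block left 21 genes higher and 8 lower with glutamine added to glucose and 13 lower with NH4Cl added to glucose, and of 228 changes of named genes 2 lost their call. Depth limits FANCF most, with 8 to 41 counts per library.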
